A study of Rattus norvegicus with 48 samples.

Results

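The caveolins Cav1 and Cav2 were followed in cerebral endothelial cells (CECs) of fed and fasted rats. Both were chosen by their symbols, which a supplementary table pairs with the identifiers ENSRNOG00000056836 (Cav1) and ENSRNOG00000057713 (Cav2), and they are 2 of the 32624 features listed in the count files and 2 of the 13050 that had at least 1 read in every sample. The study compared male Wistar-Han rats fed ad libitum (AL rats) with rats deprived of food for 1 day (F1 rats), 2 days (F2 rats) or 3 days (F3 rats). No transgene or other allele is named for any group, and the age of the rats is not given in the sources used here. All rats, fed ones included, were anesthetized with diazepam and ketamine and perfused with heparinized buffer before the cortex was taken. CECs came from the cortex, by depletion of cells carrying the microglial antigen CD11b and positive sorting on the endothelial antigen CD31. Each isolation used 4 rats, with tissue of 2 cortices pooled before digestion, so that a sample is not a single animal. Each group had 3 samples from independent experiments, named i, j and k, and each sample was read as 4 technical replicates that were summed here.

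Caveolae are flask-shaped pits of the plasma membrane that many endothelial cells use to carry proteins from the blood to the tissue side, a passage called transcytosis. Caveolin-1, the product of Cav1, is an integral membrane protein that binds cholesterol and builds the coat of the pit together with the cavins. Caveolin-2, the product of Cav2, joins caveolin-1 in the same oligomers and needs it to reach the cell surface. Endothelial cells of the brain keep caveolar transcytosis low, and this sets the blood-brain barrier apart from most other vascular beds.

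Assigned reads ranged from 20718644 to 25960874 per sample (median 23809144). The spread among the technical replicates of each sample was close to that of counting alone: the chi-square over its degrees of freedom was 1.004 to 1.022, and between samples of the same group it was 9.746 to 51.5. F2 sample j stood apart from the other F2 samples (48.8 and 51.5, against at most 24.8 for every other pair within a group), so the LFCs and calls of F2 rats are also given without it. Pecam1, the gene of CD31, was present at a mean of 33089 ± 2171 normalized counts in AL rats and 33891 ± 767 in F3 rats (SD, n = 3), where a normalized count is a count divided by the TMM-scaled library size of its sample and multiplied by the mean of these sizes. Of 10 endothelial markers 5 had an identifier here, and their summed level lay between 227097 and 229332 normalized counts in AL, 208813 and 223952 in F1, 213482 and 229237 in F2 and 204239 and 220865 in F3 samples.

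Both caveolins lie on chromosome 4, on the same strand, with the start of Cav2 23857 bases before the first of 2 annotated starts of Cav1, and RefSeq (build GRCr8) lists no gene between them. The 250 bases before the Cav2 start and the first Cav1 start are shown because the 2 neighbours changed in the same direction, and so that their sequences can be compared. The window before the second Cav1 start was searched for the same motifs and is not shown. Capitals mark the short motifs that were found. The Cav2 window is chr4:46582431-46582680 and the Cav1 window chr4:46606288-46606537, both on the plus strand of GRCr8, a different build from the one the authors aligned to.
Cav2: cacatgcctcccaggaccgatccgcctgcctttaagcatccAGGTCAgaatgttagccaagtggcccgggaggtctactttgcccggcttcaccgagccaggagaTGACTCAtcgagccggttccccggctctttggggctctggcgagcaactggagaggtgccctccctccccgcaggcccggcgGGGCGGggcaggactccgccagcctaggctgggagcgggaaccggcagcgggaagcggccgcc
Cav1: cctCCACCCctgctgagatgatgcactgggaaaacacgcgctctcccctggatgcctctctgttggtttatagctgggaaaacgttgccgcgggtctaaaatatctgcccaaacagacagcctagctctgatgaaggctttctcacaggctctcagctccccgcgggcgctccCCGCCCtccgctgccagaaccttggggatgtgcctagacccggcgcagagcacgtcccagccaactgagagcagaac
The windows shared 1 kind of match. A GC box, GGGCGG on either strand, began 77 bases before the Cav1 start, where it reads as its reverse complement, and 63 bases before the Cav2 start, and 30.5% of the 33469 promoter windows of this length held it. The Cav2 window also held the AP-1 motif TGANTCA 145 bases before the start (6.34% of windows) and the nuclear receptor half-site AGGTCA 209 bases before it (14.1% of windows), neither of which was found before either start of Cav1. Both Cav1 windows held CCACCC, the motif of KLF factors, on 1 of the strands (26.1% of windows), and the Cav2 window did not. The motif DR1, which is a pair of AGGTCA half-sites, the FOXO motif GTAAACA, the CRE motif TGACGTCA and the ETS motif CCGGAAG had no match before any of the 3 starts. They occur in 0.0508%, 3.21%, 1.59% and 7.27% of windows. Only exact matches were searched, so sites that differ from a motif by any letter were missed. For DR1, rare in this exact form, a lack of matches says little. The Cav1 window was 60.0% G and C, more than 74.7% of windows, and the Cav2 window 68.4%, more than 89.7%. These matches describe letters and were not tested as binding sites.

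Normalized counts of Cav1 were lower in fasted than in fed samples and lowest after 3 days, although not every difference between groups passed the tests given below. AL samples i, j and k had 13637, 14810 and 15807 normalized counts of Cav1. F1 samples had 10270, 11264 and 12056, and F2 samples had 11224, 12418 and 11676. F3 samples had 8591, 10217 and 8555. Every fasted sample was below every AL sample, and every F3 sample was below every F1 and F2 sample. The share of all features with this whole pattern was not computed. For its single comparisons, given below, the share was 7.13% to 18.0%. The group means were 14751 ± 1086 in AL, 11197 ± 895 in F1, 11772 ± 603 in F2 and 9121 ± 949 in F3 rats (SD, n = 3). Raw counts behind these values were between 8616 and 14820 per sample, and the 4 technical replicates of a sample differed by a coefficient of variation of 1.28% to 2.44%, against 5.12% to 10.4% between samples of a group.

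**Figure D1:**
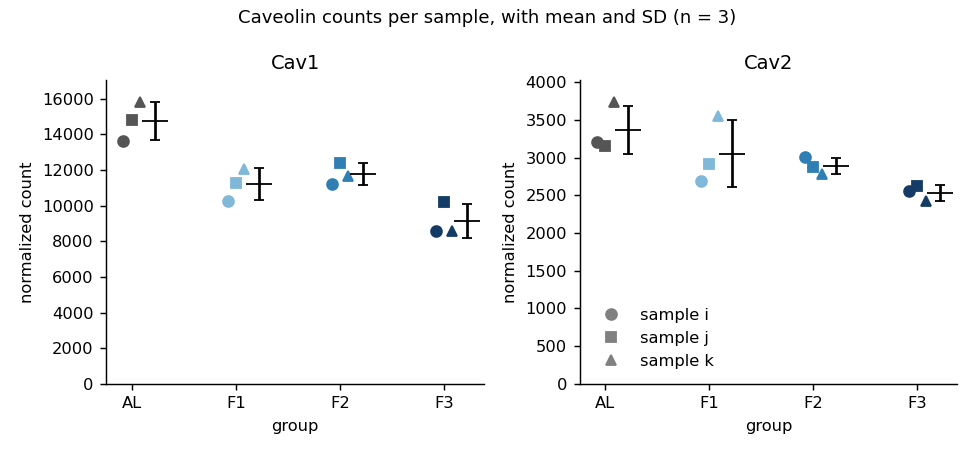
Normalized counts of Cav1 (left) and Cav2 (right) in each sample, by group, with symbols for samples i, j and k and a black bar for the mean ± SD (n = 3); both vertical axes start at 0. For Cav1 the AL samples lie above all others and the F3 samples, between 8555 and 10217, below all others, whereas for Cav2 1 F1 sample, at 3550, lies within the AL range.

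After 1 day of fasting Cav1 fell, with an LFC (log2 fold change) of -0.40 ± 0.09 (SE, adjusted p = 0.0231), which is 75.9% of the AL level (95% confidence interval 66.1% to 87.2%). Over all features tested, 2.64% were called lower in F1 than in AL rats, where called means an adjusted p of at most 0.05 in the quasi-likelihood test of edgeR, and 14.1% had all 3 F1 samples below all 3 AL samples. The call was lost without AL sample k (adjusted p = 0.0846), F1 sample i (0.0950) or F1 sample j (0.0843).

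After 2 days the LFC of Cav1 was -0.33 ± 0.09 (SE), 79.8% of the AL level (69.5% to 91.6%). This did not pass the test (p = 0.00372 in the fit of edgeR, adjusted p = 0.139), although no F2 sample overlapped an AL sample. Such a lack of overlap was seen for 8.66% of features, and 0.383% were called lower. DESeq2 called the decrease (adjusted p = 0.0341). Without F2 sample j the LFC was -0.37 (adjusted p = 0.103).

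After 3 days Cav1 fell to 61.8% of the AL level (53.8% to 71.0%), with an LFC of -0.69 ± 0.09 (SE, adjusted p = 0.000464), and it ranked 120 by p-value among the 13050 features in this comparison. Called lower in F3 than in AL rats were 5.73% of features, and 18.0% had no overlap in this direction. The decrease was called in each of the 23 alternatives run, with an adjusted p of at most 0.00431 when any 1 sample was left out.

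Cav2 was lower after 3 days of fasting, with an LFC nearer to no change than that of Cav1. The test of that difference in F3 rats, given below, could not pass with 3 samples against 3 (exact permutation p = 0.1, the smallest possible). AL samples i, j and k had 3211, 3153 and 3733 normalized counts of Cav2, and F1 samples had 2693, 2909 and 3550. F2 samples had 3003, 2874 and 2787, and F3 samples had 2550, 2629 and 2423. The F3 samples were below all others, F1 sample k was within the range of AL rats, and the F2 samples were below those of AL rats by a gap of 149.8 normalized counts. Over all features, F3 samples were below all AL, F2 or F1 samples in 18.0%, 12.1% and 7.13%. For F2 samples below all AL samples the share was 8.66%. The means were 3366 ± 319 in AL, 3051 ± 446 in F1, 2888 ± 109 in F2 and 2534 ± 104 in F3 rats (SD, n = 3). Raw counts were 2440 to 3500 per sample, with a coefficient of variation of 1.02% to 4.98% between technical replicates and 3.77% to 14.6% between samples of a group.

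The LFC of Cav2 against AL was -0.14 ± 0.10 in F1 rats (SE, adjusted p = 0.458; 95% confidence interval of the LFC -0.35 to 0.07) and -0.22 ± 0.10 in F2 rats (adjusted p = 0.362; -0.43 to -0.0093). Neither passed the test in edgeR or DESeq2, and the interval in F2 rats includes the LFC of -0.33 seen for Cav1. The LFC in F1 rats was -0.26 without F1 sample k and -0.06 without F1 sample i or AL sample k, and that in F2 rats was -0.14 without AL sample k. In F3 rats Cav2 fell, with an LFC of -0.41 ± 0.10 (SE, adjusted p = 0.0160), to 75.3% of the AL level (65.0% to 87.2%). It ranked 870 by p-value among the 13050 features. Called lower in this comparison were 748 features (5.73%), of which 459 had a lower LFC than Cav2. The call in F3 rats was lost without AL sample k (adjusted p = 0.0765) or without F3 sample i (0.0574) or k (0.0751). Without F2 sample j the LFC in F2 rats was -0.22 (adjusted p = 0.384).

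**Figure D2:**
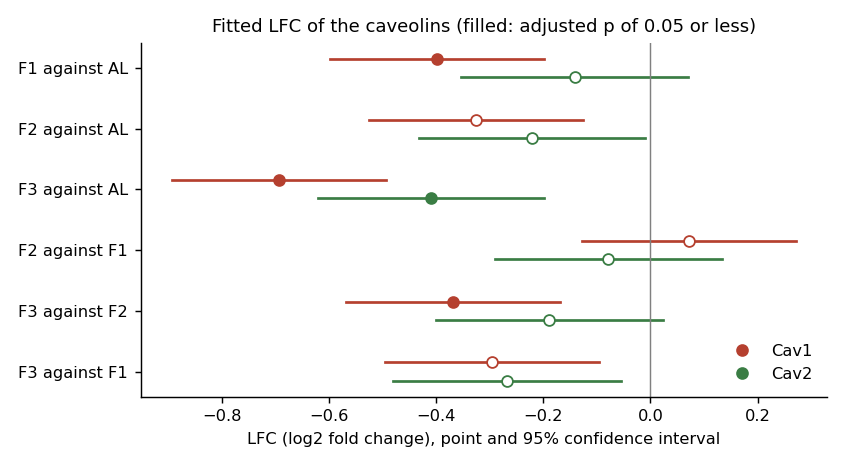
LFC of Cav1 (red) and Cav2 (green) in the 6 comparisons between groups, with 95% confidence intervals as lines; filled points had an adjusted p of 0.05 or less and open points did not. Both points for F3 against AL are filled, at -0.69 and -0.41, and the points for F2 against F1 lie close to 0.

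The fasted groups were also compared with each other, which asks whether the caveolins moved further as the fast went on. Between 1 and 2 days neither passed the test: the LFC of F2 against F1 was 0.07 for Cav1 (95% confidence interval -0.13 to 0.27, adjusted p = 0.738) and -0.08 for Cav2 (-0.29 to 0.13, adjusted p = 0.728), in a comparison where 1.34% of features were called in either direction. Without F2 sample j these LFCs were 0.03 (adjusted p = 0.898) and -0.08 (adjusted p = 0.773). Between 2 and 3 days Cav1 fell again, with an LFC of -0.37 ± 0.09 (SE, adjusted p = 0.0360), and 2.30% of features were called lower. Without overlap in this direction were 12.1% of features. For Cav2 the LFC of F3 against F2 was -0.19 ± 0.10 (SE, adjusted p = 0.284), although its samples did not overlap either. The call for Cav1 was lost without F1 sample j (adjusted p = 0.0558), F2 sample j (0.0770), or k (0.0664), or F3 sample i (0.156) or k (0.131), and with only the 6 samples of the 2 groups in the fit (0.0936).

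Against F1 rats, F3 rats had an LFC of -0.30 ± 0.09 for Cav1 (SE, p = 0.00694 in edgeR, adjusted p = 0.974) and -0.27 ± 0.10 for Cav2 (SE, p = 0.0172 in edgeR, adjusted p = 0.992). For both genes all F3 samples were below all F1 samples, by a gap of 53.1 normalized counts for Cav1 and 64.4 for Cav2, which was the case for 7.13% of features. Without F1 sample k the LFC of Cav2 was -0.14. In this comparison 0% of features were called by edgeR, 586 had an unadjusted p under 0.05 and 24 were called by DESeq2, neither caveolin among them (adjusted p = 0.411 and 0.966).

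In order of their means, Cav1 was highest in AL, then F2, F1 and F3 rats, and Cav2 in AL, then F1, F2 and F3 rats. No 2 neighbours in either order differed past the threshold. A joint test of the 4 groups, which called 9.98% of features, passed for Cav1 (adjusted p = 0.00307) and not for Cav2 (adjusted p = 0.0681). With the days of fasting as a number, the slope was -0.20 ± 0.04 LFC per day for Cav1 (SE, adjusted p = 0.0300) and -0.13 ± 0.03 for Cav2 (adjusted p = 0.0661), and 0.521% of features were called with a negative slope. The slope of Cav1 was no longer called without AL sample i (adjusted p = 0.0722), j (0.123) or k (0.123), or without F3 sample i (0.114), j (0.0562) or k (0.114). DESeq2 called Cav2 in both tests (adjusted p = 0.0169 for the groups and 0.00636 for the slope), and the slope of Cav2 was also called without F1 sample i (adjusted p = 0.0360) or F2 sample j (0.0361) and the joint test without F1 sample i (0.0461) or k (0.0300).

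Whether the 2 caveolins fell by different amounts was asked with the ratio of their counts within each sample, which needs no scaling of libraries. The ratio is not per length and says nothing of which protein is more abundant. It was 4.25, 4.70 and 4.23 in AL samples i, j and k. It was 3.81, 3.87 and 3.40 in F1 samples, 3.74, 4.32 and 4.19 in F2 samples, and 3.37, 3.89 and 3.53 in F3 samples. All F1 and F3 samples were below all AL samples. Of the F2 samples only j lay within the range of AL rats, and i and k were below it. Over the 4 groups the log2 ratio differed (exact permutation test over 369600 assignments of the samples, p = 0.0356). The F3 mean was lower than the AL mean by a log2 difference of -0.29 and the F1 mean by -0.25, each with p = 0.1 in a two-sided exact permutation test (adjusted p = 0.3 over 6 pairs), and 0.1 is the smallest p that 3 samples against 3 allow. The other differences were -0.11 for F2 against AL (exact p = 0.4), 0.14 for F2 against F1 (exact p = 0.3), -0.18 for F3 against F2 (exact p = 0.2) and -0.04 for F3 against F1 (exact p = 0.8). Without F2 sample j the difference was -0.15 for F2 against AL, 0.10 for F2 against F1 and -0.14 for F3 against F2 (exact p = 0.1, 0.6 and 0.3, where 0.1 is the smallest that 2 samples against 3 allow). Without AL sample i, j or k the exact p over the 4 groups was 0.0568, 0.0879 or 0.0549, without F2 sample k 0.0564, and without F3 sample i or k 0.0544 or 0.0703.

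**Figure D3:**
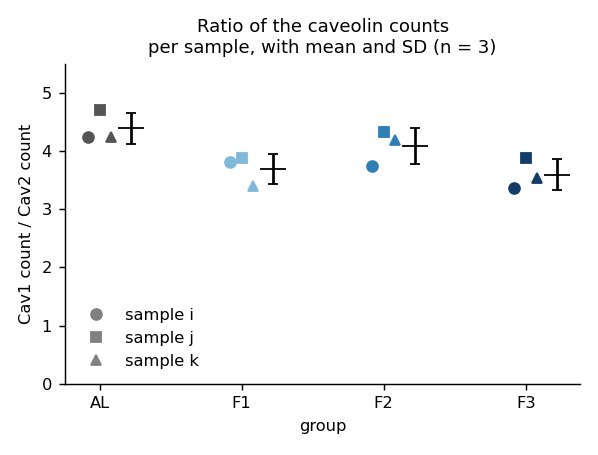
Ratio of the Cav1 count to the Cav2 count in each sample, by group, with symbols for samples i, j and k and a black bar for the mean ± SD (n = 3); the vertical axis starts at 0. The F1 and F3 samples, between 3.37 and 3.89, lie below the AL samples, which lie between 4.23 and 4.70.

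The 2 caveolins also varied together between samples. Over the 12 samples the Pearson correlation of their log2 CPM was 0.86 and the Spearman correlation 0.87. These samples share libraries and groups, and both genes were lowest in F3 rats. Without the 2 samples farthest from the median of Cav1 (AL sample k and F3 sample k) r fell to 0.74 over 10 samples, and over the 12 samples with group means removed it was 0.66. Ranked by r, Cav1 was 11th of the 13049 other features for Cav2, and Cav2 was 197th for Cav1. With group means removed these ranks were 257 and 510.

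Of the genes with a symbol and a mean of at least 100 normalized counts, 1146 in all, those most like Cav1 were Afap1l1 (r = 0.96), Afap1l2 (0.95), Arhgef15 (0.94), Slc12a7 (0.93) and Slc29a3 (0.92). Afap1l1 and Afap1l2 encode actin filament-associated proteins, Arhgef15 a guanine nucleotide exchange factor, Slc12a7 a potassium-chloride cotransporter and Slc29a3 a nucleoside transporter. All 5 were called lower in F3 than in AL rats, with LFCs from -0.84 for Afap1l1 to -0.38 for Slc12a7, which their choice by likeness to Cav1 favours. In F2 rats Arhgef15 was called as well (LFC -0.45, adjusted p = 0.00851), as was Afap1l1 (-0.42, adjusted p = 0.0461), whose call there was lost in 13 of 23 alternatives (adjusted p up to 0.255), leaving out F2 sample j among them (0.0665). The call of Arhgef15 was lost with only the 6 samples compared (0.153) and held without F2 sample j (LFC -0.48, adjusted p = 0.00696). The F3 call was lost for Slc12a7 without F3 sample i (adjusted p = 0.0627) or k (0.0546) and for Slc29a3 without F3 sample i (0.0505). Of all 13049 other features, 71 had an r of at least 0.9 with Cav1 and 1 had it with Cav2.

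Those most like Cav2 were Ccdc90b (r = 0.89), Aagab (0.88), Cav1 (0.86), Slc29a3 (0.85) and Bcorl1 (0.84). Aagab encodes a protein that helps to assemble clathrin adaptor complexes and Bcorl1 a transcriptional corepressor. Slc29a3 stood on both lists. The LFC in F3 rats was -0.34 for Ccdc90b (adjusted p = 0.0468), -0.22 for Aagab (adjusted p = 0.156) and -0.42 for Bcorl1 (adjusted p = 0.00554). The call of Ccdc90b was lost in 11 of 23 alternatives (adjusted p up to 0.172), which were 8 of the 12 fits with 1 sample left out, upper-quartile scaling, no filter and the block for the sample letter. Symbols were known mostly for genes early in the alphabet, so that likeness among the other features has no names here.

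**Figure D4:**
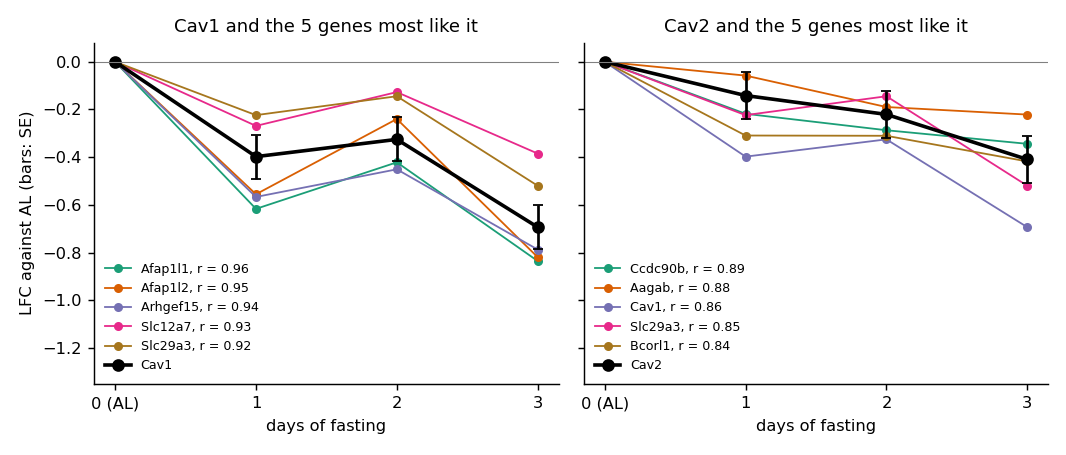
LFC against AL rats by days of fasting for Cav1 (left) and Cav2 (right), in black with the SE as bars, and for the 5 named genes most like each, in colour with their r over the 12 samples; AL is set to 0. The lines beside Cav1 dip after 1 day, come closer to 0 after 2 days and are lowest after 3 days, at -0.84 to -0.38, and the line of Cav2 is at -0.14, -0.22 and -0.41.

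The other genes of caveolae, transcytosis and clathrin-coated pits were described from 5 lists with 90 genes, of which 31 had an identifier here and gave 33 features, since Abl1 and Calm2 each have 2. Mfsd2a, Plvap, Cav3, the cavins, the EHD proteins and the pacsins had none and were not analysed here, so that of the caveolar coat only the caveolins were measured. Setting the caveolins aside, 31 features were left. In F1 rats none was called by edgeR, against 6.57% of all features in either direction, although 5 had an unadjusted p under 0.05 there and DESeq2 called Bin1 and Bdkrb2 (chosen after their values were seen). In F2 rats 1 was called, higher than in AL rats, as were 0.536% of all features. In F3 rats 1 was called higher, as were 6.28% of all features, and 3 were called lower, as were 5.73%. The LFC of Cav1 was below that of each of the 31 in F1 and in F3 rats, and 4 of them were lower in F2 rats. Over all features this was not rare: 226 of the 345 called lower in F1 rats had a lower LFC than Cav1. In F3 rats 183 of the 748 called lower did. Below the LFC of Cav2 were 8 of them after 1 day, 4 after 2 days and 2 after 3 days.

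Among transcytosis receptors and regulators, 5 of 19 were identified, with a median LFC in F3 rats of -0.05, against -0.01 for all features. Acvrl1, a BMP receptor of endothelial cells that also binds low-density lipoprotein, fell from 18150 ± 852 to 15123 ± 73.6 normalized counts (SD, n = 3; LFC -0.26, adjusted p = 0.0231). Bsg, Alpl, Ager and Bmpr2 had LFCs in F3 rats of -0.05, 0.20, -0.13 and -0.04, with adjusted p-values of 0.283 or more. Of the clathrin coat and its adaptors 10 of 18 were identified, with a median LFC of -0.11 in F3 rats. Bin1, a protein that binds and bends membranes in endocytosis, rose from 441.1 ± 55.1 to 595.7 ± 29.3 normalized counts (LFC 0.43, adjusted p = 0.0325). The call of Acvrl1 was lost with no filter on low counts and without AL sample j or k or any F3 sample (adjusted p = 0.0516 to 0.0799), and that of Bin1 with total counts as the scale and without AL sample i or k or F3 sample i or k (0.0556 to 0.110).

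Of the proteins held in caveolae or bound by caveolin, 11 of 22 were identified, as 13 features, with a median LFC of -0.03 in F3 rats. Anxa6, a calcium-dependent membrane-binding annexin, fell in F3 rats from 2957 ± 195 to 2202 ± 129 normalized counts (LFC -0.43, adjusted p = 0.0104). Bdkrb2, the bradykinin B2 receptor, rose in F2 rats from 862.2 ± 210.2 to 1737 ± 123 (LFC 1.01, adjusted p = 0.00424), and had LFCs of 0.45 in F1 (adjusted p = 0.0648) and 0.40 in F3 rats (adjusted p = 0.0714). Without F2 sample j its LFC in F2 rats was 1.06 (adjusted p = 0.00662). Cholesterol is needed to form caveolae, and of 12 genes of sterol supply and efflux 3 were identified. Acat2, a cytosolic thiolase at the start of sterol synthesis, fell in F3 rats from 344.6 ± 49.6 to 232.3 ± 48.3 (LFC -0.57, adjusted p = 0.0264), and Abca1 and Abcg1, which export sterols, had LFCs of 0.05 and -0.19 (adjusted p = 0.884 and 0.508). The call of Acat2 was lost without AL sample j (adjusted p = 0.107) or F3 sample i (0.108) and with only the 6 samples compared (0.0511), which also ended that of Bdkrb2 (0.0899), and the call of Anxa6 was lost without F3 sample k (0.0544).

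**Figure D5:**
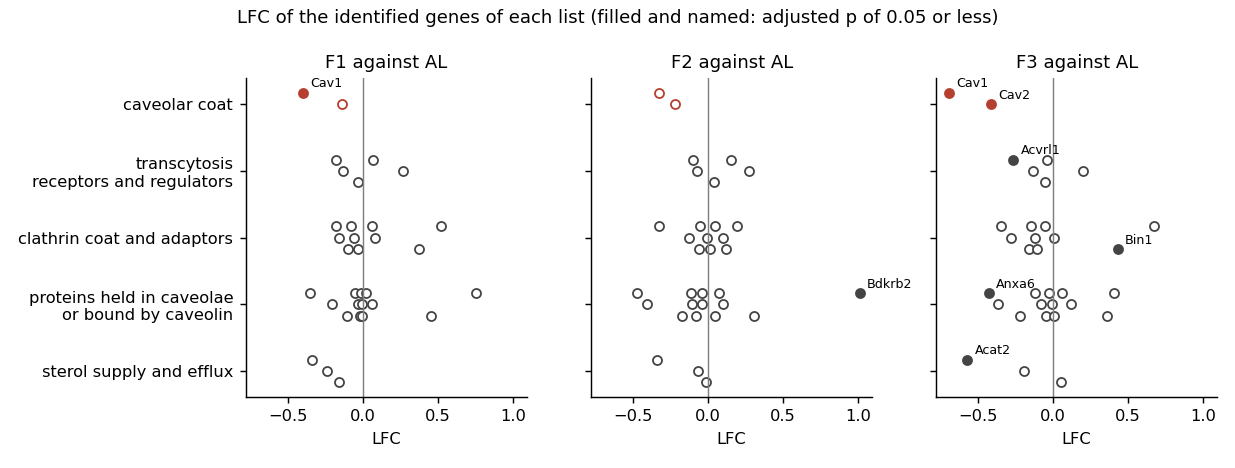
LFC against AL rats after 1, 2 and 3 days of fasting for each identified gene of 5 lists, with the caveolins in red; filled points, which carry their names, had an adjusted p of 0.05 or less, and vertical offsets within a list only keep points apart. Cav1 is the leftmost point of the F1 and F3 panels at -0.40 and -0.69, and most other points lie near 0.

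Capza2, a subunit of the actin capping protein and a neighbour of the caveolins on the chromosome, had LFCs of -0.10, -0.12 and -0.09 in F1, F2 and F3 rats (adjusted p = 0.417, 0.436 and 0.423). It was looked at after the values were known, as the 1 gene near them with an identifier.

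Markers of other cell types were examined because sorted cells can carry others with them, and because in a bulk sample fewer cells of a type and less RNA per cell cannot be told apart. Identifiers were taken from the study's list of genes with at least 1 read in each sample, so that none of these markers could be at 0. None of the identified markers of mural cells, fibroblasts, microglia, astrocytes, oligodendrocytes, neurons and red blood cells was called in any fasted group by edgeR. These were 19 markers, with an unadjusted p under 0.05 in 6 of 57 comparisons with AL. DESeq2 called 1 of them, the neuronal gene Avp, in F1 rats. Of all features, 6.57% were called by edgeR in F1 rats, in either direction. Called lower and higher were 0.383% and 0.536% in F2 and 5.73% and 6.28% in F3 rats. The identified mural cell markers had LFCs of -0.65 to 0.33 in F1 and 0.26 to 0.83 in F2 rats (SE 0.29 to 0.36). Of 11 mural cell markers 4 were identified, with a summed level of 1967 to 4494 normalized counts in AL rats, 2140 to 2432 in F1, 2536 to 4847 in F2 and 1740 to 4559 in F3 rats. Of 7 astrocyte markers 3 were identified, with a higher summed level (mean over all samples 7039, against 3101 for mural cells). It was 5058 to 10458.5 in AL, 5204 to 6319 in F1, 7445 to 9349 in F2 and 4465 to 8406 in F3 rats. Those of endothelial cells moved in both directions in F3 rats: Adgrl4, an adhesion receptor, rose (LFC 0.49), whereas Bcl6b, a transcriptional repressor, fell (-0.84), as did Slco1a4, an organic anion transporter (-0.43). Pecam1 and Abcb1a, the gene of P-glycoprotein, had LFCs in F3 rats of 0.03 and 0.01 (adjusted p = 0.819 and 0.964). Among markers of vessel types in F3 rats, Slc38a5 of veins fell (LFC -0.48), Car4 of capillaries fell as well (-0.54), and Slc16a1 of capillaries rose (0.79). Adgrg6, also a venous marker, and Bmx, an arterial marker, had LFCs of 0.04 and 0.46 (adjusted p = 0.949 and 0.445). Of these calls in F3 rats, that of Slco1a4 was lost without F3 sample k (adjusted p = 0.0526) and that of Slc38a5 without AL sample i (0.105) or k (0.0545) or F3 sample i (0.0802) or k (0.0923). Adgrl4, Bcl6b, Slco1a4, Slc38a5, Car4 and Slc16a1 were also called in F1 rats, in the same directions. In F1 rats these calls, except that of Bcl6b, were lost in 5 or 6 of 23 alternatives. Only Slc16a1 among them was called in F2 rats. The part of these markers in the caveolin results was not tested.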

How the data were processed

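RNA-Seq was performed by the authors on polyadenylated RNA of CECs from 12 samples (AL, F1, F2 and F3 rats, 3 each), sequenced as 4 technical replicates per sample in 48 files. The authors used strand-specific libraries, aligned the reads with STAR to the rat genome (Rnor_6.0), removed reads with more than 1 match and counted reads on exons with HTSeq-count (HTSeq 0.5.3 per the labels). The deposited values are these raw counts per gene, not normalized. Whether the counting used the strand is not given in the sources used here, so reads of a gene and of any gene overlapping it on the other strand cannot be told apart.

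Technical replicates were summed, and samples were grouped by their titles. Technical replicate d of F1 sample k carries a label of the F2 fast beside its F1 title, was kept in F1, and was left out in an alternative. Features with at least 1 read in each sample, 13050 of 32624, were fitted in R 4.3.3 with edgeR 4.0.16 (TMM, quasi-likelihood test without its robust option, 1 model of 4 group means). Adjusted p-values follow Benjamini and Hochberg over the 13050 features, with a threshold of 0.05. SEs and 95% confidence intervals come from the same fit. CPM values were log2 transformed with a prior count of 2. Exact permutation tests were run in Python with scipy 1.17.1.

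Alternatives were DESeq2 1.42.0, its size factors, total counts, upper-quartile scaling, no filter, at least 10 reads, edgeR's filterByExpr, fits of the 2 groups alone, a block for the sample letter, and each sample left out. The caveolins, the lists and the motifs were chosen with earlier results of these data known. Symbols came from the identifier columns of shortened supplementary tables, which named 2043 of the features tested, mostly early in the alphabet. The genes named by rule are the caveolins, list members called against AL (at most 4 per list, by their adjusted p in F3 rats) and the 5 genes most like each caveolin. Markers and some list members with no call are given beside them for context. Sequences are from RefSeq (GRCr8). For both caveolins a promoter was found by their gene identifiers. One list member that was not called is left out.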

Additional observations from a re-analysis of the deposited data

Results flagged for a closer look

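The effect of fasting on Cav1 differed between 2 and 3 days, by a test of the difference itself: the LFC of F3 against F2 rats was -0.37 (adjusted p = 0.0360 in edgeR), with all 3 F3 samples below all 3 F2 samples, as for 12.1% of features. The call was lost in 6 of 23 alternatives, with an adjusted p of up to 0.156.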

How the results depend on the processing

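Of 23 alternatives to each pairwise result (22 to the joint test and the slope), the direction against AL rats held in each for both caveolins, and the decrease of Cav1 in F3 rats was called in each. Apart from leaving out samples, calls changed as follows. DESeq2 called Cav1 in F2 rats (LFC -0.32), and with only the 6 samples compared Cav1 was not called for F3 against F2 (-0.36). For Cav2 the joint test was called with total counts (adjusted p = 0.0466) and DESeq2 (0.0169), as was the slope (-0.14 and -0.13 per day). With total counts as the scale the median LFC of all features was -0.07 in F1, -0.04 in F2 and -0.05 in F3 against AL. Called list members became 0 for the transcytosis list with no filter, 0 for the clathrin list with total counts and 2 with only the 6 samples compared, and 0 for the sterol list with only those 6. The cause was not tested.

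Leaving out each sample in turn gave LFCs of Cav1 from -0.45 to -0.34 in F1, -0.38 to -0.27 in F2 and -0.78 to -0.63 in F3 against AL, -0.46 to -0.32 for F3 against F2 and 0.014 to 0.13 for F2 against F1, with slopes of -0.22 to -0.18. For Cav2 it gave -0.26 to -0.06 in F1, -0.27 to -0.14 in F2 and -0.45 to -0.32 in F3 against AL, -0.35 to -0.14 for F3 against F1, an adjusted p of 0.0300 to 0.209 in the joint test and slopes of -0.14 to -0.11. The LFC of Cav2 for F2 against F1 ran from -0.16 to 0.044, turning positive only without F1 sample k. The exact p of the ratio over the 4 groups ran from 0.0212 to 0.0879. Called members ran from 1 to 2 (caveolar coat), 0 to 1 (transcytosis), 0 to 2 (clathrin), 1 to 3 (proteins held in caveolae) and 0 to 1 (sterols).

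Pairing of the samples by their letter was weak at most. Deviations of same-letter samples from their group means correlated between -0.02 and 0.14 (median 0.03), above 0.1 in 3 of 18 pairs. Between samples of different letters the range was -0.19 to 0.20 (median -0.03), above 0.1 in 1 of 36 pairs. With the letter as a replicate block no call for a caveolin or list changed, with LFCs in F3 rats of -0.69 for Cav1 and -0.40 for Cav2 and a ratio difference of -0.29 (exact sign-flip p = 0.25, the smallest possible). The block moved the features called from 175 to 102 for F2 against F1, 0 to 1 for F3 against F1 and 83 to 30 for the slope.

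Counts of features called changed by over 1.5 times in F2 against AL (120) with DESeq2 (359), no filter (196) and only the 6 samples compared (0), in F2 against F1 (175) with 616, 305 and 36 in the same order, and in F3 against F2 (767) with DESeq2 (1242) and only the 6 samples (226). The joint test went from 1302 to 2090 with DESeq2, the slope from 83 to 128 with total counts and 488 with DESeq2, and F3 against F1 from 0 to 24 with DESeq2, 11 with no filter and 3 with the 6 samples. Leaving out 1 sample gave 305 (without F1 j) to 1468 (F2 j) in F1, 36 (AL k or F2 i) to 157 in F2 and 784 (F3 i) to 2382 (F2 j) in F3 against AL, in place of 857, 120 and 1567. It gave 0 (F1 i or j) to 182 for F2 against F1, 146 (F3 i) to 749 for F3 against F2, 744 (F3 i) to 1782 in the joint test and 4 (F3 i) to 438 (F2 j) for the slope. A robust estimate of the dispersion, chosen after seeing the data, changed no call for the caveolins.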
